A study of Drosophila melanogaster with 12 samples.

Results

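Adult heads of a p53 mutant fly strain (Drosophila melanogaster) were compared after ionizing radiation and after mock treatment. The comparison rests on 2 of the 12 samples in the series, 1 RNA library per group, and was read gene by gene as the irradiated minus the mock value. The mutant strain is p535A-1-4 and the wild-type strain is yw. The dose was 40 Gy, beside a mock treatment of each strain. Flies were aged 1 to 2 weeks as adults, and the protocol text gives the irradiated ones 3 h of recovery. Each sample is a pool of mixed adult heads, freed by freezing and sieving, from which polyA RNA was taken. Mutant embryos, treated at 3 to 4 h of age with the same dose or mock and left for 1.5 h, are used beside the heads. All groups compared within the mutant carry the same p53 mutation, and the labels name no genetic background that it would share with yw. With 1 library per group there is no replicate check, so differences are described and not tested.

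p53 is a transcription factor that is switched on by DNA damage through the checkpoint kinases. In fly embryos and larval discs it induces the cell death genes reaper, hid and sickle, and also genes of DNA repair. Most cells of the adult brain and eye no longer divide.

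Transcript levels are FPKM, fragments per kilobase of transcript scaled to the fragments sequenced. A difference is that of log2(FPKM + 1), irradiated minus mock, which understates the change of low genes, and a gene is called higher or lower at 2-fold or more. The 10672 genes counted reached 1 FPKM in at least 1 of the 4 head groups. The steps between low FPKM values gave 15.1 M fragments for the mock and 11.5 M for the irradiated mutant library, and 10.7 and 14.1 M for the mock and irradiated wild-type libraries. From these, a ratio of 2 libraries was given a 95% interval that covers counting error only, for transcripts of 300 bp or more. Such an interval compares the 2 libraries and not the conditions. It narrows with more fragments, so shares of intervals clear of 1 are not matched for level between a list and all genes. Head markers were present in both mutant libraries, among them the neuronal gene elav at 33.4 and 29.0 FPKM, the glial gene repo at 21.9 and 26.7 FPKM and the rhodopsin gene ninaE at 4572 and 3962 FPKM. In such bulk samples, fewer cells of a type and less RNA per cell cannot be told apart.

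The p53 transcript (dm6, 3R:23049657-23054082) stood at 0.532 FPKM in mock and 0.549 FPKM in irradiated mutant heads. It stood at 11.7 and 13.3 FPKM in the same 2 groups of wild type, so the libraries matched their strain labels.

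Most transcripts differed by less than 2-fold between irradiated and mock mutant heads. In all, 68 genes were higher and 78 lower, which is 0.637% and 0.731% of the genes counted, against 1.52% higher and 0.487% lower in wild-type heads and 1.02% and 0.948% in mutant embryos. The middle of the distribution was narrow. The median difference was -0.04, the central 90% of genes lay between -0.35 and 0.40, and 95.6% of genes lay within 1.5-fold. A difference above 0 was found for 41.8% of genes in mutant heads and for 52% in wild-type heads.

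Most of the called genes were close to the floor. The low library listed 26 of the 68 rises and 39 of the 78 falls at 0, and 41 rises and 55 falls were under 5 FPKM in both mutant libraries. Of the rises, 16 were counted only because the irradiated mutant library reached 1 FPKM, and 31 of the falls only because the mock mutant library did, so these had to differ. Genes with a CR symbol, given to non-coding transcripts and pseudogenes, made up 21 rises and 28 falls. Among genes at 5 FPKM or more in either mutant library, 27 were higher and 23 lower, of 8592, beside 17 higher and 18 lower for the same genes in wild-type heads. Among transcripts long enough for an interval, 43 rises and 41 falls had one clear of 1, which is 0.41% and 0.391% of 10498 genes.

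**Figure D1:**
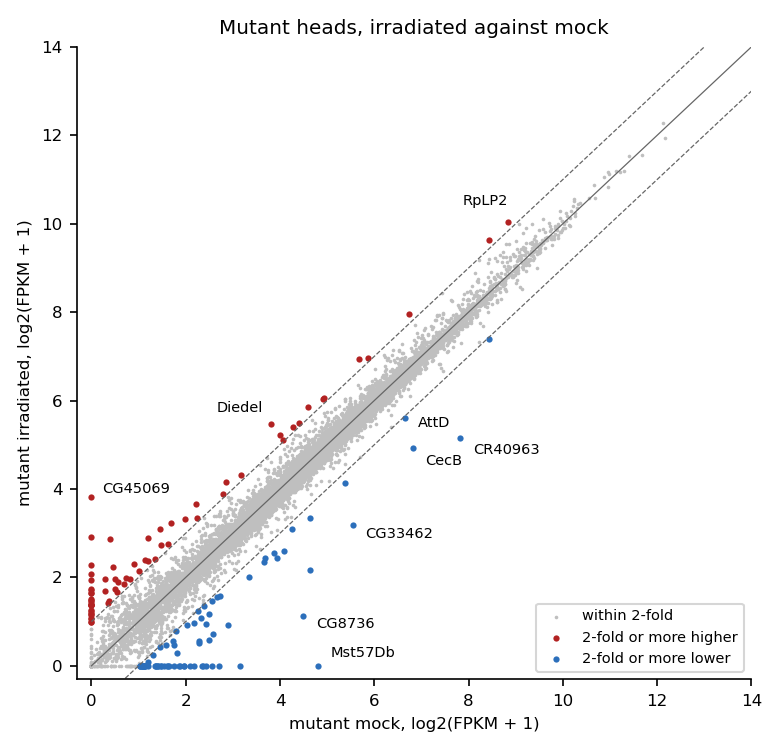
Level of each gene in mock (horizontal) and irradiated (vertical) mutant heads, as log2(FPKM + 1), 1 point per gene. Dashed lines mark a 2-fold difference. The 68 rises (red) and 78 falls (blue) lie mostly at the low end, and CR40963, CecB, CG33462, RpLP2 and Diedel are among the exceptions.

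None of the p53 targets passed 2-fold in irradiated mutant heads, beside 0.637% higher and 0.731% lower among all genes. Of 12 on the list, 11 reached 1 FPKM in some head group, and WRNexo, a Werner-type exonuclease, stayed at 0.942 and 0.556 FPKM. In wild-type heads 3 of the 11 were higher and none lower, beside 1.52% and 0.487% of all genes. The list had a median of 0.20 and 7 members above 0, beside a median of -0.04 over all genes. The counting interval lay above 1 for 6 of the 11 and below 1 for 1, against 13.3% and 22.1% of all genes.

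The DNA repair members of the list stood higher in the irradiated library, each by less than 2-fold. Ku80 (2L:15768630-15771159) encodes a subunit of the Ku heterodimer, which binds broken DNA ends for end joining. It went from 9.81 to 14.9 FPKM, a difference of 0.55 with an interval of 1.30 to 1.77 for the ratio. Its partner Irbp, the other Ku subunit, went from 13.6 to 17.1 FPKM, a difference of 0.32 with an interval of 1.10 to 1.45. RnrL, the large subunit of ribonucleotide reductase, which makes deoxynucleotides, went from 4.66 to 6.63 FPKM, a difference of 0.43 with an interval of 1.15 to 1.77. All 3 lay above the range that counting error allows around equal levels. The nuclease gene mre11, which trims broken ends, went from 11.9 to 15.6 FPKM, with an interval of 1.12 to 1.52. The gene mus205, the catalytic subunit of the translesion polymerase zeta, went from 4.01 to 5.26 FPKM, with an interval of 1.14 to 1.51. These 5 genes differed by 0.32 to 0.55 in mutant heads and by 0.85 to 1.48 in wild-type heads. Mutant and wild-type differences come from separate libraries, and whether they differ was not tested. The list was chosen with earlier results of these data known, so the larger wild-type values may be partly built in.

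The cell death members of the list behaved otherwise. The levels of rpr (reaper), W (hid), skl (sickle) and egr (eiger, a tumour necrosis factor ligand) were all slightly lower after radiation, by differences of -0.05 to -0.28. The lowest difference was that of skl, which went from 14.6 to 11.9 FPKM with an interval of 0.67 to 0.99 for the ratio. The intervals of rpr, W and egr included 1. In wild-type heads the same 4 genes differed by 0.13 to 0.21. Corp, a regulator of p53, went from 7.30 to 8.53 FPKM, with an interval of 0.89 to 1.54. Xrp1, a leucine zipper transcription factor, was the most abundant target and went from 380 to 432 FPKM, a difference of 0.19 beside 0.17 in wild type.

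**Figure D2:**
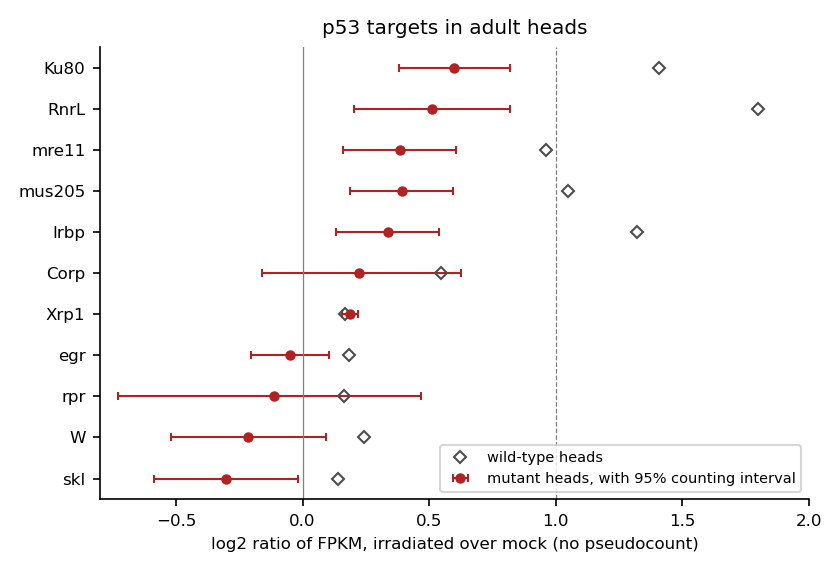
Log2 ratio of FPKM, irradiated over mock and without a pseudocount, for the 11 p53 targets counted in heads. Red points are mutant heads with the 95% counting interval and open diamonds are wild-type heads. Ku80, RnrL, mre11, mus205 and Irbp lie right of 0 in both strains, and rpr, W, skl and egr lie at or left of 0 in the mutant.

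A separate list of 45 repair genes, which left out Ku80, Irbp, RnrL, mre11 and mus205, had a median of 0.02 in mutant heads. No member passed 2-fold there, beside 0.637% higher and 0.731% lower among all genes. The interval lay above 1 for 6 and below 1 for 3 of the 45, against 13.3% and 22.1% of all genes. In wild-type heads the same list had a median of 0.20. Lig4, the ligase of end joining, went from 8.03 to 10.9 FPKM, a difference of 0.39 beside 0.37 in wild type. The alkyltransferase gene agt, which repairs alkylated guanine, went from 21.4 to 27.2 FPKM, a difference of 0.33 beside 0.76 in wild type. The ligase gene lig3 differed by less than 0.01 in the mutant and by 0.58 in wild type. The gene rad50, whose product works with that of mre11, differed by 0.16 and 0.54. The mismatch repair gene Msh6 was lower, at 3.63 and 2.68 FPKM. Among 16 apoptosis genes none passed 2-fold and the median was -0.01. The caspase gene decay stood at 0.15 and 0.55 FPKM, and debcl, a Bcl-2 family gene, at 26.0 and 32.1 FPKM.

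Clock transcripts differed in the mutant, again without reaching 2-fold. The clock is a loop in which Clk and cyc drive per, tim, vri and other genes whose products then shut Clk and cyc off. The core repressor per (X chromosome) went from 24.6 to 46.6 FPKM, a difference of 0.89 with an interval of 1.78 to 2.02 for the ratio. The Clk repressor vri went from 74.0 to 125 FPKM, with an interval of 1.62 to 1.76. The per partner tim went from 73.6 to 109 FPKM, with an interval of 1.43 to 1.54. Each was higher in the irradiated than in the mock library of both strains, with wild-type differences of 0.42, 0.45 and 0.68. Clk itself went from 23.9 to 16.0 FPKM, a difference of -0.55 beside -0.39 in wild type. The light receptor gene cry went from 105 to 87.8 FPKM, a difference of -0.26 beside -0.25. Thus per, tim, vri, cwo and Pdp1 were higher in both strains, and Clk and cry lower in both. That grouping was made after the values were seen. The whole list of 18 had 9 members above 0 and a median of -0.04, beside -0.04 over all genes. Clock transcripts cycle over the day, the labels give no time of collection, and a part of the hour of sampling in these values was not tested. The neuropeptide gene Pdf, an output of the clock neurons, went from 166 to 112 FPKM in the mutant and stood at 109 and 105 FPKM in wild type.

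Among immune transcripts, the calls were 3 antimicrobial peptide genes and Diedel. In flies, Gram-negative bacteria act through the Imd pathway on cecropins, attacins and diptericins, and fungi and Gram-positive bacteria act through Toll on Bomanin and other peptides. Of 19 antimicrobial peptide genes counted, 3 fell and none rose, beside 0.731% lower and 0.637% higher among all genes. In wild-type heads 3 of the 19 fell and 1 rose. The median was -0.35 in the mutant beside -0.22 in wild type. CecB (3R:30213315-30213797) fell from 111 to 29.3 FPKM, a difference of -1.89 with an interval of 0.21 to 0.33 for the ratio. AttD fell from 99.5 to 47.5 FPKM, a difference of -1.05 with an interval of 0.42 to 0.54. CecC fell from 343 to 167 FPKM, a difference of -1.03 with an interval of 0.44 to 0.54. CecB stood at 5.12 and 3.67 FPKM and AttD at 5.89 and 6.77 FPKM in wild-type heads, so both remained above wild type after radiation.

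The other cecropins and attacins were lower by less than 2-fold. CecA1 went from 561 to 370 FPKM and CecA2 from 699 to 512 FPKM. AttA went from 169 to 106 FPKM, AttB from 546 to 377 FPKM and AttC from 514 to 404 FPKM. All 8 genes of the 2 families were lower, with the interval below 1 for each. Most were lower in wild-type heads too, where differences lay between -1.52 and 0.17 and 2 of the 8 were above 0. Cecropins lie side by side on 3R and, like AttA and AttB, are similar in sequence, so the division of fragments among copies is uncertain. PGRP-SC2 and pirk, which dampen the Imd pathway, went from 228 to 157 FPKM and from 27.4 to 21.6 FPKM. The list of 38 recognition and signalling genes as a whole had a median of -0.03, with none past 2-fold.

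Of the 11 antimicrobial peptide genes outside these 2 families 7 were also below 0, with the interval below 1 for 2 and above 1 for 1, and 3 were above 0. Of the 3, Mtk (metchnikowin) went from 535 to 614 FPKM, Dro (drosocin) from 1080 to 1207 FPKM, and Drs (drosomycin) from 336 to 338 FPKM. Of 17 Bomanin and other Toll-induced peptide genes, none passed 2-fold, differences lay between -0.18 and 0.45, and the median was 0.09. In wild-type heads the median of that list was -0.28, with 1 of 17 above 0 and 3 past 2-fold lower. IM1 went from 1615 to 1870 FPKM in the mutant and from 161 to 133 FPKM in wild type. IM23 went from 650 to 745 FPKM in the mutant, and from 9.07 FPKM to a listing at 0 in wild type. The summed level of the list in the mock libraries was 13839 FPKM in the mutant and 6405 FPKM in wild type.

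Diedel (3R:29493852-29494267), which encodes a secreted modulator of immune signalling, rose most among genes at 5 FPKM or more in both mutant libraries. It went from 12.96 to 43.2 FPKM, a difference of 1.66 with an interval of 2.39 to 4.68 for the ratio. In wild-type heads it went from 2.74 FPKM to a listing at 0. The other 14 members of the Turandot and JAK-STAT list stayed within 2-fold. TotA, a stress-induced humoral factor, went from 850 to 990 FPKM and TotC from 675 to 811 FPKM, and TotM stood at 282 and 278 FPKM. The list median was 0.14.

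**Figure D3:**
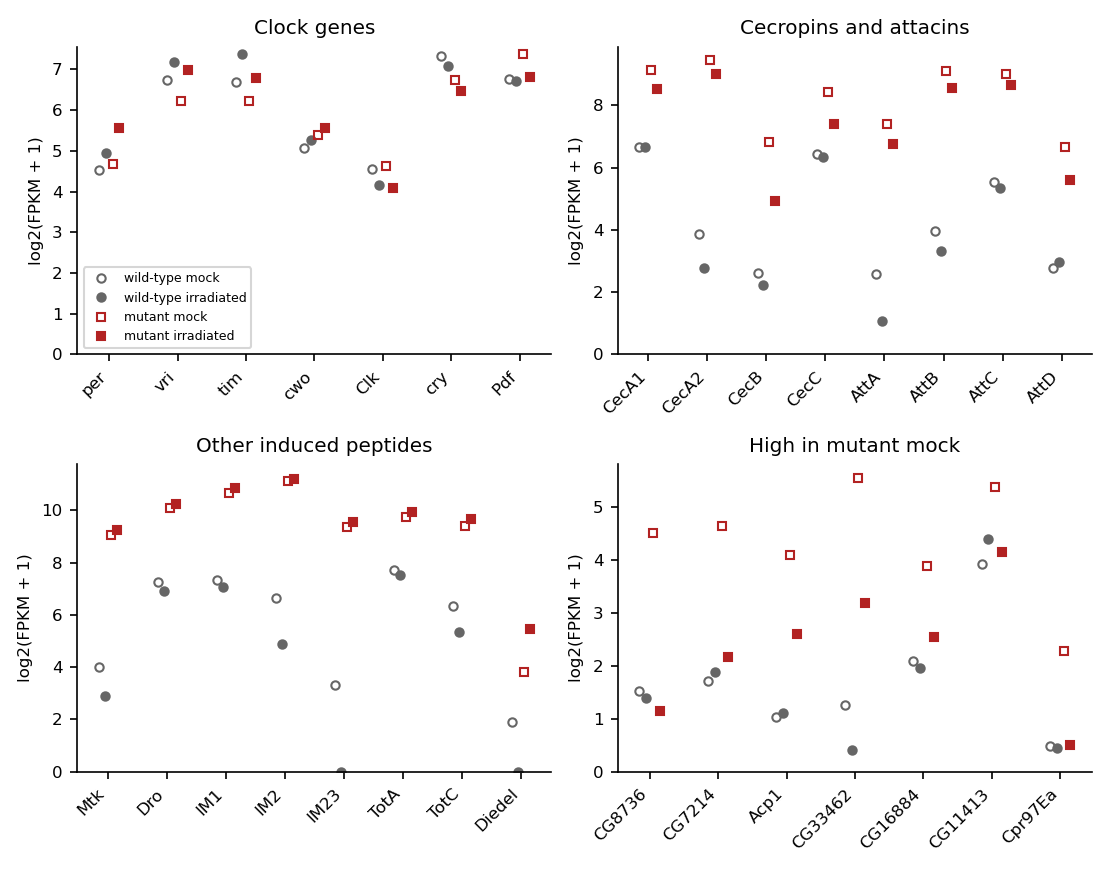
Levels in the 4 head libraries, as log2(FPKM + 1), of clock genes, cecropins and attacins, other induced peptides, and genes highest in the mock mutant library. Circles are wild type and squares the mutant, open for mock and filled for irradiated. Cecropins and attacins are lower in irradiated than in mock mutant heads in all 8 genes, and Mtk, Dro, IM1, IM2, IM23, TotA, TotC and Diedel are higher.

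Metallothioneins, small proteins that bind copper and other metals, split. MtnB (3R:20503102-20503746) fell from 14.3 to 4.39 FPKM in mutant heads, a difference of -1.51 with an interval of 0.16 to 0.54, and from 17.9 to 5.30 FPKM in wild-type heads. In mutant embryos it went the other way, from 0.610 to 5.54 FPKM. MtnD rose from 1.29 to 6.42 FPKM in mutant heads and from 0.50 to 4.84 FPKM in mutant embryos, and went from 4.67 to 7.33 FPKM in wild-type heads. MtnE went from 4.13 to 1.69 FPKM and MtnA, the most abundant, from 597 to 661 FPKM. MtnD and MtnE lie 0.258 kb apart, and the transcript of MtnD is under 300 bp.

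Some genes passed 2-fold in the same direction in both strains. Of the mutant rises 5, or 7.35%, were also called in wild-type heads, against 1.52% of all genes counted that were higher there. These 5, or 3.09% of the 162 rises in wild type, were CG13679, CG34263, CR45211, CG14237 and CG15579. Of the mutant falls 5, or 6.41%, were shared, against 0.487% of all genes counted that were lower in wild-type heads. These 5, or 9.62% of the 52 falls in wild type, were MtnB, CR44410, CR44719, CR44300 and CR45671. Opposite calls were also found. Of the 68 mutant rises 3 were lower in wild-type heads, against 0.487% of all genes. Of the 78 mutant falls 7 were higher there, against 1.52%. CG13679 went from 0.305 to 6.32 FPKM in the mutant and from 2.78 to 6.97 FPKM in wild type. MtnB and CR44410 were the most abundant shared falls in the mutant mock library. CR44410, with a transcript under 300 bp, went from 11.7 to 4.06 FPKM in the mutant and from 17.9 to 7.32 FPKM in wild type. With mutant embryos, where 1.02% of genes were higher and 0.948% lower, MtnD and CG43630 were shared among the rises and CR45321 among the falls.

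Several falls came with a level in the mock mutant library above those of all other head libraries. Of the 10672 genes counted, 16 at 5 FPKM or more stood over 2-fold higher in the mock mutant than in each other head library. In the irradiated mutant library 5 did so, and the count was not made for the wild-type libraries. CG8736 (2R:8594031-8595001) went from 21.6 to 1.20 FPKM in the mutant, against 1.88 and 1.64 FPKM in wild type. CG7214 went from 23.9 to 3.49 FPKM, against 2.28 and 2.67 FPKM. Acp1, an adult cuticle protein gene 2.15 kb from CG7214, went from 16.0 to 5.03 FPKM, against 1.05 and 1.17 FPKM. The irradiated mutant library was near the wild-type values for CG8736 and CG7214, and the mock library was the one that stood apart. CG33462 (2R:15696794-15698010) went from 45.8 to 8.04 FPKM, against 1.39 and 0.328 FPKM. On 3L, the neighbours CG13043 and CG13044 went from 5.49 and 4.07 FPKM to listings at 0, and CG13056, 27.4 kb away, from 4.42 to 0.914 FPKM. The non-coding CR40963 went from 226 to 34.8 FPKM, below its 134 and 201 FPKM in wild type.

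Cuticle protein genes encode the chitin-bound proteins of the body wall. Of 40 counted, 2 fell and none rose, beside 0.731% lower and 0.637% higher among all genes. Above 0 were 10, beside 41.8% of all genes, and the median was -0.18 beside 0.02 in wild type. Cpr97Ea fell from 3.84 to 0.423 FPKM, against 0.401 and 0.360 FPKM in wild type, and was counted only through the mock mutant library. Cpr60D fell from 5.67 to 2.00 FPKM, against 1.96 and 3.28 FPKM. Abundant members differed less, as Cpr72Ec, which went from 283 to 239 FPKM, and Cpr67B, which stood at 117 and 122 FPKM. Of 116 members found, 76 did not reach 1 FPKM, and with these included the median was 0.00. With a pseudocount of 5 FPKM no cuticle gene fell. GstD11, a glutathione transferase gene, fell from 2.49 to 0.725 FPKM, as the only 1 of 31 on its list. Among 31 odorant-binding protein genes 21 were above 0 and the median was 0.09. Obp19b rose, and Obp84a and Obp99d fell from 1.99 and 3.08 FPKM to 0.387 and 0.903 FPKM, falls that were not called with a pseudocount of 5 FPKM.

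Transcripts of the reproductive tract, which a pool of sieved heads should lack, were found at low levels and differed between the mutant libraries. SP (sex peptide), Mst57Db and Acp95EF are made in the male accessory gland. They stood at 4.90, 26.9 and 7.86 FPKM in the mock mutant library and at 0 in each of the 3 other head libraries, so the filter kept them through that library alone. Their transcripts are under 300 bp, where FPKM is a poor measure. Acp95EF also stood at 16.3 FPKM in mock and 11.5 FPKM in irradiated mutant embryos, so its signal is not particular to the accessory gland. SP and Mst57Db were listed at 0 in both. Of 12 accessory gland genes counted, 3 were lower and 2 higher, beside 0.731% and 0.637% of all genes. Among the 2, PebII, a mating plug protein gene, went from 0.867 to 3.95 FPKM. The abundant Est-6, which heads also express, stood at 247 and 241 FPKM. Some eggshell genes rose. Vm26Aa and Vm26Ab, vitelline membrane genes 1.96 kb apart, rose from 0.381 to 3.68 FPKM and from 0.213 to 2.89 FPKM, and the chorion gene Cp18 rose from 1.21 to 4.27 FPKM. Of these, Vm26Ab was counted only through the irradiated mutant library and so had to rise. Of 9 eggshell genes counted 3 were higher, beside 0.637% of all genes, with a median of 0.35. Over all 25 found the median was 0.10, and with a pseudocount of 5 FPKM none was higher. The sperm tail gene Mst87F was listed at 0 in the mock and at 1.41 FPKM in the irradiated library, against 0.458 and 0.361 FPKM in wild type. It too was counted only through the irradiated mutant library and so had to rise.

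The summed level of the eggshell list was 13.5 FPKM in the mock and 24.7 FPKM in the irradiated mutant library, and 14.1 and 12.1 FPKM in wild type. The germline markers nos and osk stood at 0.174 and 0.426 FPKM and at 1.82 and 0.424 FPKM. The ovary and germline list, with 15 members counted, had a median of -0.02, 9 members below 0 and none past 2-fold. The 14 genes of sex composition differed by -0.52 to 0.23, with 9 below 0 and the interval above 1 for 3 and below 1 for 5. Among them were roX1, an RNA of the male X chromosome, at 119 and 110 FPKM and the yolk protein gene Yp1 at 1150 and 1242 FPKM. Whether carry-over from other body parts plays a part in these values was not tested. Of 40 digestive enzyme genes 21 were counted, 11 of them only through the irradiated wild-type library, which builds in part of any contrast with wild type. In the mutant none of the 21 was higher, 1 was lower and the median was 0.00. Jon65Aiv stood at 2.09 and 3.16 FPKM, and betaTry at 0.270 and 1.26 FPKM.

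**Figure D4:**
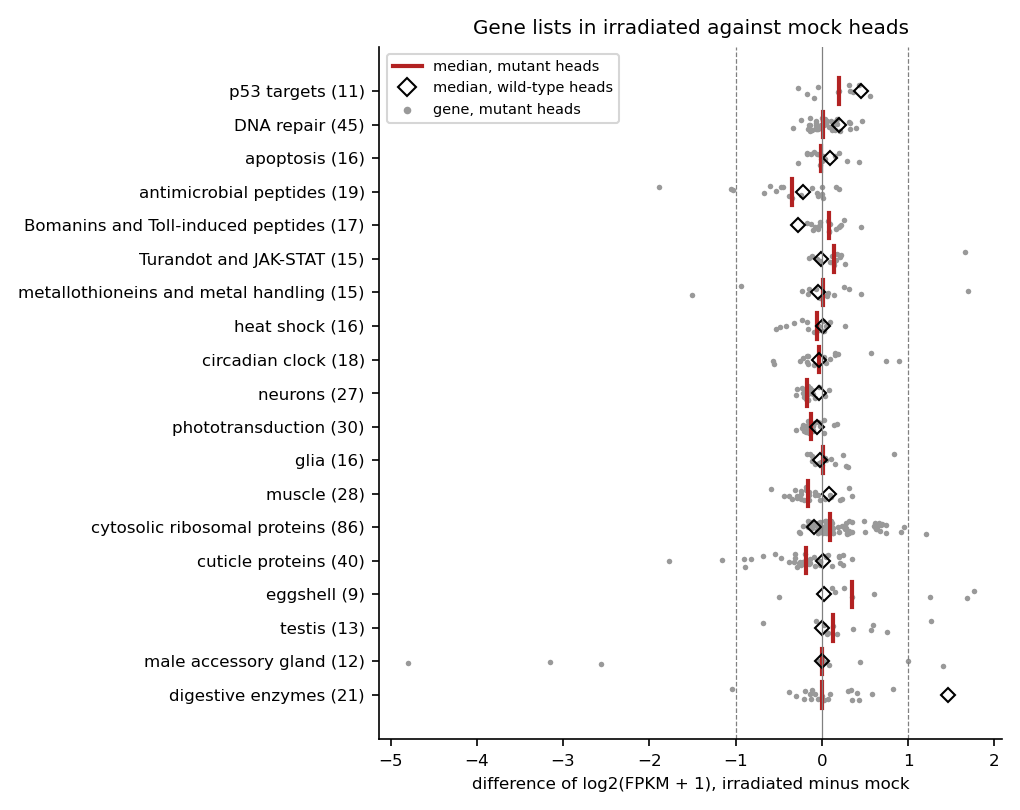
Difference of log2(FPKM + 1), irradiated minus mock, for the genes of 19 lists in mutant heads (grey points, number of genes in brackets). Red bars are the list medians in mutant heads and open diamonds those in wild-type heads, and dashed lines mark 2-fold. Antimicrobial peptide, neuron and cuticle lists lie left of 0 in the mutant, p53 targets and eggshell genes lie right, and the digestive enzyme median is 1.46 in wild type and 0.00 in the mutant.

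Ribosomal protein genes, which build the cytosolic ribosome, stood higher as a list. Of 86, 1 rose, 62 were above 0 and the median was 0.10, beside -0.08 in wild type. The interval lay above 1 for 52 of 84, against 13.3% of all genes, a share not matched for fragment number. RpLP2 (2R:16586129-16586732), a protein of the ribosomal stalk, rose from 457 to 1060 FPKM, a difference of 1.21 with an interval of 2.22 to 2.42 for the ratio. RpL34b went from 297 to 578 FPKM, a difference of 0.96. RpL13A went from 538 to 1018 FPKM, a difference of 0.92. The list was uneven, since 16 genes differed by 0.5 or more and 64 lay within 0.3 of 0, and none differed by 0.5 or more in wild type. In the mock mutant library 14 of those 16 were below both wild-type libraries, and in the irradiated mutant library 15 were above both. Because the 16 were picked by their mutant difference, such a placement is partly built in. RpLP2 was at 674 and 545 FPKM in wild type, between its mutant values.

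The same placement held for other abundant rises. At 5 FPKM or more in both mutant libraries 16 genes rose, by ratios of 2.13 to 3.33. In mock 12 of them were below both wild-type libraries, and after radiation these 12 were above both. The genes were picked for a wide gap between their mutant values, which favours wild-type values inside it. The placement is therefore partly built in, and it was not compared with that of unselected genes. Ref1, an RNA export factor, rose from 50.4 to 122 FPKM, against 71.7 and 80.2 FPKM in wild type. CG13551 rose from 105 to 250 FPKM, against 160 and 151 FPKM. CG4692 rose from 346 to 794 FPKM, against 466 and 525 FPKM. Wild-type values lay between the mutant values in each. The odorant-binding protein gene Obp19b rose from 14.9 to 36.2 FPKM, against 27.2 and 30.6 FPKM. Hakai, an E3 ubiquitin ligase, rose from 5.87 to 13.8 FPKM, and mRpS14, of the mitochondrial ribosome, from 15.7 to 33.6 FPKM. Of these 16 genes 11 overlap another listed gene, beside 3 of the 9 falls at that level, and the share among all genes was not computed. On the X chromosome lie 6 of the 16 (37.5%, beside 16.6% of 8381 genes at that level). Transcripts of the 16 are 220 to 1733 bp long.

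**Figure D5:**
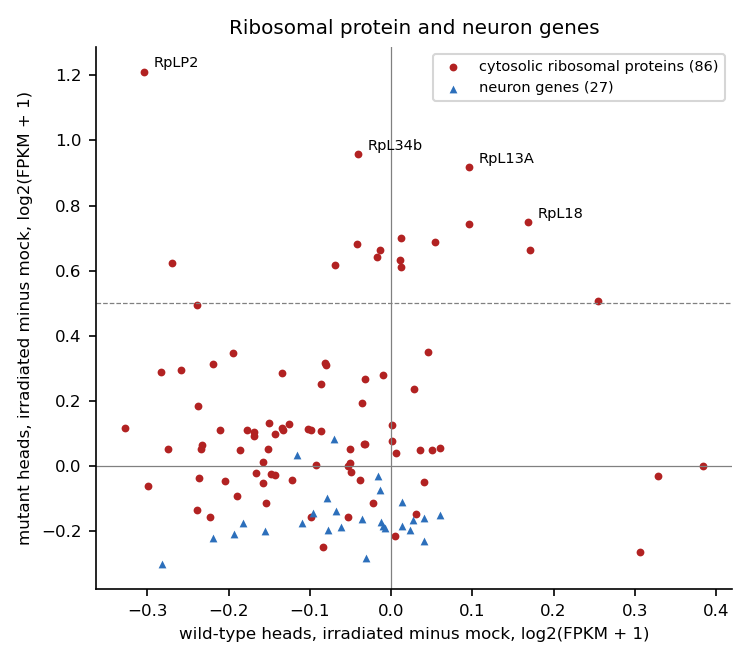
Difference of log2(FPKM + 1), irradiated minus mock, in wild-type (horizontal) and mutant (vertical) heads for 86 ribosomal protein genes (red) and 27 neuron genes (blue). The dashed line marks 0.5. The 16 ribosomal protein genes above it, led by RpLP2 at 1.21, all lie below 0.5 in wild type, and 25 of the 27 neuron genes lie below 0 in the mutant.

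Neuronal transcripts were slightly lower in the irradiated mutant library. Of 27 genes none passed 2-fold, 25 were below 0, and the median was -0.18 beside -0.04 in wild type. The interval was below 1 for 24 of 27, against 22.1% of all genes, a share not matched for fragment number. The sodium channel gene para went from 18.1 to 15.9 FPKM, the active zone gene brp from 48.9 to 43.5 FPKM and Snap25, of the vesicle fusion complex, from 338 to 296 FPKM. Phototransduction genes had a median of -0.12 with 26 of 30 below 0, and muscle genes a median of -0.16 with 21 of 28 below 0. Glial genes had a median of 0.02 with 8 of 16 above 0 and 8 below, and the interval above 1 for 6 and below 1 for 5. The glial gene bnb stood at 116 and 208 FPKM, and the glutamate transporter gene Eaat1 at 128 and 121 FPKM.

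Transcript length moved with these lists. In mutant heads the median difference was 0.04 for 247 genes with transcripts up to 500 bp, -0.03 for 1815 genes of 2000 to 3000 bp and -0.12 for 479 genes over 6000 bp. In wild-type heads the medians were -0.07, 0.00 and -0.01. Across 8548 genes Spearman's rho of difference and length was -0.19 in the mutant and -0.04 in wild type. It describes genes within single pairs of libraries, which are not independent replicates. The median transcript was 5660 bp for the neuron list and 761 bp for the ribosomal protein list, and the part of length in their medians was not tested. The median transcript was 399 bp for the antimicrobial peptide list.

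No gene of the heat shock, oxidative stress, nutrient or unfolded protein lists passed 2-fold. The 16 heat shock genes had a median of -0.06, and the chaperone gene Hsp83 went from 302 to 215 FPKM, beside 225 and 228 FPKM in wild type. Of 23 oxidative stress genes the interval was above 1 for 9, against 13.3% of all genes, and Sod, the copper-zinc superoxide dismutase gene, went from 289 to 415 FPKM. The 36 genes of nutrient response had a median of 0.04 and the interval above 1 for 13. The 17 genes of the unfolded protein and integrated stress responses had a median of -0.06 and the interval below 1 for 8, against 22.1%. The sugar-responsive transcription factor gene sug went from 40.5 to 64.9 FPKM, with an interval of 1.46 to 1.76, and from 29.2 to 34.6 FPKM in wild type. The activity-regulated receptor gene Hr38 went from 8.60 to 6.24 FPKM, beside 7.18 and 9.0 FPKM in wild type.

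Genes near p53-bound sites in heads were then set beside the rest. The 392 head peaks, called by the authors for wild-type over mutant chromatin, lay within 1 kb of 847 genes, of which 630 were counted. In irradiated mutant heads 3 of these 630 rose and 3 fell, beside 0.637% higher and 0.731% lower among all genes. The median was -0.04, beside -0.04 over all genes. The 3 rises, CG42507, CG43788 and CG43789, were listed at 0 in the mock library. CG2650 fell from 5.02 to 0.652 FPKM, CR44300 from 4.02 to 1.12 FPKM, and CR45730 from 1.16 FPKM to a listing at 0. Among the p53 targets, W, Corp, egr and Xrp1 had a head peak within 1 kb, and the authors' folds of their highest peaks were 4.11, 8.17, 4.32 and 11.7. Ku80, Irbp, RnrL, mre11 and mus205 had none. CG45069, with the largest rise at 5 FPKM or more, stood at 13.03 FPKM in the irradiated mutant library, with a listing at 0 in each of the 3 others from heads.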

How the data were processed

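PolyA RNA was sequenced in paired-end stranded libraries, per the labels' protocols. Per the submitters' processing notes, the tools for RNA were cutadapt, TopHat2, Picard, SAMtools and Cuffdiff, those for chromatin included Bowtie2 and MACS2, and the build was dm6. Not given in the sources used here are tool versions, the annotation and whether counting used strand. The deposited table of heads gives each gene an FPKM value per group, from the authors' Cuffdiff run per the file headers. It also gives log2 fold changes that the authors computed after adding 1 FPKM. For mutant heads the latter differed from the differences used here by at most 0.00159 over 16510 genes. The deposited head peaks give a fold (ratio) per peak, a −log10 p-value and q-value and a display score, of which the fold was used, within the list only. Because each library has its own scaling factor, a shift in RNA per cell cannot show. Fragments of overlapping genes or close copies are shared out between them.

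Differences used a pseudocount of 1 FPKM. Genes entered if any of the 4 head groups reached 1 FPKM. Depth was read as the step in FPKM times length of genes with 1 transcript of 800 to 3000 bp, with lengths from Ensembl release 115 reduced by 150 bp, and tested on simulated data. With the length reduced by 0 or 250 bp the mock mutant library came to 11.5 or 16.3 M fragments and the irradiated to 10.2 or 12.4 M, so intervals depend on this choice. Intervals are exact (Clopper-Pearson), from scipy 1.17.1. The 39 gene lists were matched by symbol or RefSeq synonym, with 48 entries by synonym and 19 not found. Genes named by rule were p53, p53 targets, the 15 largest rises and falls at 5 FPKM or more, at most 4 members of any list past 2-fold, and genes called the same way in wild-type heads or mutant embryos. Other genes, among them the clock, immune, ribosomal protein, repair and stress genes within 2-fold, were chosen after their values were seen. The members and lists were chosen with earlier results of these data known.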

Additional observations from a re-analysis of the deposited data

Results flagged for a closer look

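Genes past 2-fold in opposite directions in irradiated mutant heads and in another irradiated group numbered 10 against wild-type heads and 3 against mutant embryos. The 10 were 3 of 68 genes higher and 7 of 78 lower in mutant heads. Called the same way were 5 higher and 5 lower genes in wild-type heads, and 2 and 1 in mutant embryos. Among all genes, 1.52% were higher and 0.487% lower in wild-type heads, and 1.02% and 0.948% in mutant embryos. The difference between groups was not tested, since each group has 1 library.

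Against wild-type heads, Diedel differed by 1.66 in the mutant and by -1.90 in wild type. CR44886 differed by 2.92 in the mutant (listed at 0 in mock and at 6.57 FPKM after radiation) and by -3.39 in wild type. CG7377 differed by 1.46 in the mutant and by -1.72 in wild type. Lower in the mutant and higher in wild type were CR45440 by -2.37 and 4.06, CR44285 by -1.97 and 2.17, CG43166 by -1.85 and 2.02, CR45463 by -1.42 and 1.57, CR43812 by -1.12 and 2.64, CR45333 by -1.07 and 1.16, and CR45717 by -1.07 and 1.47. Each of these last 7 genes was listed at 0 in the irradiated mutant and in the mock wild-type library.

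Against mutant embryos, MtnB differed by -1.51 in heads and by 2.02 in embryos. CR44886 differed by 2.92 in heads and by -1.54 in embryos. The small RNA gene snoRNA:Psi28S-2566 differed by -1.42 in heads and by 1.36 in embryos.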

How the results depend on the processing

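The numbers of genes past 2-fold, 68 higher and 78 lower, depended on how low values were treated. They were 164 and 205 with a pseudocount of 0.1 FPKM, 13 and 13 with a pseudocount of 5 FPKM, and 31 and 30 among genes at 5 FPKM or more in any head group. At a threshold of 1.5-fold they were 259 and 208, and at 3-fold 15 and 27. Counts stayed within 1.5 times these with no filter, with the filter on mutant groups alone, with differences centred on the median of -0.04, and without small RNA genes. Counts with an interval clear of 1, 43 and 41, were 51 and 49 with lengths unreduced and 36 and 35 with lengths reduced by 250 bp. Of 54 named genes past 2-fold, 20 stayed so with a pseudocount of 5 FPKM and 52 when centred, and no direction reversed. Of 272 list medians recomputed under these settings, 266 stayed within the order-statistic interval of the list's median. Of genes near head peaks, the 3 falls became 1 with peaks of fold 3 or more, and the 3 rises became 4 within 5 kb. Depth limits genes under 5 FPKM most. No paired analysis was possible because each group has 1 library, so no library could be left out either.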
